A study of Mus musculus with 8 samples.

Results

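The 42 genes described here encode the machinery of DNA replication and mitosis. They were taken by name from the table of all genes, and all 42 symbols were found among its 23366 genes. The RNA came from sorted cells that the labels call beta cells, the cells of the pancreas which make insulin. The mice were 8 to 10 weeks old and of the NOD strain, in which autoimmune diabetes arises spontaneously. The sorted populations compared are those the labels call top and bottom. Each had 4 libraries of about 1000 cells, 2 of them in batch 1 (numbers 1 and 2) and 2 in batch 2 (numbers 3 and 4). No genotype other than the strain and no treatment is named, and whether each library is a different mouse is not stated. The p-values rest on differences among libraries, which may be partly technical. The comparison asks whether transcripts of dividing cells differed in amount between the populations.

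Libraries held 6657640 to 11262400 estimated counts. Insulin transcripts, the label check for beta cells, took 26.6 to 40.1% of the counts in top and 2.75 to 7.16% in bottom. Delta cell markers summed to 2649 to 5296 CPM (counts scaled to 1e6 per library) in top and 33403 to 57801 CPM in bottom. Beta cell markers, all 8 with counts, summed to 344010 to 505628 CPM in top and 38724 to 81371 CPM in bottom. In bottom 1 and bottom 2 the sums of PP (pancreatic polypeptide) cell markers, 77084 and 91991 CPM, were above those of beta cell markers, 38724 and 81371 CPM. In bottom 3 and bottom 4 they were below. In bulk RNA, fewer cells of a type and less RNA per cell cannot be told apart.

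A cell copies its DNA before it divides. MCM proteins load onto replication origins with the help of Cdc6 and Cdt1, and the sliding clamp Pcna holds the polymerase on its template while ribonucleotide reductase supplies the building blocks. Cdk1 with cyclins A and B then starts mitosis, Aurora and Polo kinases build and monitor the spindle, and Cdc20 with Ube2c marks the cyclins for destruction. Replication genes are known as targets of E2F factors. Genes of mitosis are known to be repressed in resting cells through a promoter element called CHR, often beside CCAAT boxes. Adult beta cells divide rarely, so these transcripts are known to be scarce in islets.

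Many members hold the letters of these elements, which the choice of genes by name did not use. RefSeq (build GRCm38.p6, the C57BL/6J reference and not the NOD sequence) held a promoter of 300 bases, from 250 before to 50 after the start, for 35 of the 42 members. The CHR letters searched were TTTGAA and TTCGAA, the E2F letters were TTCCCGC and TTGGCGC, and the third motif was CCAAT, all on both strands. The letters of E2F and CCAAT can overlap, as in the promoter of Ccnb1. A CHR match stood in 18 of 23 promoters of mitosis genes and their regulators (78.3%), in 2 of 12 promoters of replication and nucleotide genes (16.7%), and in 19.4% of all 27025 promoters. An E2F match stood in 4 of 23 (17.4%), 7 of 12 (58.3%) and 6.93% of them. CCAAT stood in 21 of 23 (91.3%), 8 of 12 (66.7%) and 37.9%. These are matches of letters, not measured binding.

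The promoters of 5 genes are printed because these genes carry the patterns described further on. Ccnb1 had no count in top, and Mki67 and Top2a were highest in different bottom libraries. Mcm6 had the largest log2 fold change of the tested MCM genes, and Rrm2 was the 1 member whose libraries did not overlap. Capitals mark every match of the motifs above.
Ccnb1 promoter, chr13:100786437-100786736, minus strand: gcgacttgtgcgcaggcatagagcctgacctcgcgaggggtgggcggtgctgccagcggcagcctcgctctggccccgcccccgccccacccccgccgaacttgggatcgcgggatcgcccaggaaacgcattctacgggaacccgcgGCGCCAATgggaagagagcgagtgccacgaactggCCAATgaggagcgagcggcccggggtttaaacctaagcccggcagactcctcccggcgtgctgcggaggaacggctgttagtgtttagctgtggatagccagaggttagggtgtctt
Mki67 promoter, chr7:135716330-135716629, minus strand: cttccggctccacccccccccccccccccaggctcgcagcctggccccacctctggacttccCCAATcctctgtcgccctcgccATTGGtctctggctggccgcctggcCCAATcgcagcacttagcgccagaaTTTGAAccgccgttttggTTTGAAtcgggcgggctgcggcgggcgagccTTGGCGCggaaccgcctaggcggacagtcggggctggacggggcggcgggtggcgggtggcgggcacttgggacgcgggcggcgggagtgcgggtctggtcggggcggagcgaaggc
Top2a promoter, chr11:99024140-99024439, minus strand: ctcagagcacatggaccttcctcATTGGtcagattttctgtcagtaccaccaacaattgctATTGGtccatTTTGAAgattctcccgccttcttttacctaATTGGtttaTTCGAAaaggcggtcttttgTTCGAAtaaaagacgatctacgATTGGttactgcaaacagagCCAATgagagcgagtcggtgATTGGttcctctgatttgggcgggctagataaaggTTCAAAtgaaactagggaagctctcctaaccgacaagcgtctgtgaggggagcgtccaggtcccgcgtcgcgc
Mcm6 promoter, chr1:128359656-128359955, minus strand: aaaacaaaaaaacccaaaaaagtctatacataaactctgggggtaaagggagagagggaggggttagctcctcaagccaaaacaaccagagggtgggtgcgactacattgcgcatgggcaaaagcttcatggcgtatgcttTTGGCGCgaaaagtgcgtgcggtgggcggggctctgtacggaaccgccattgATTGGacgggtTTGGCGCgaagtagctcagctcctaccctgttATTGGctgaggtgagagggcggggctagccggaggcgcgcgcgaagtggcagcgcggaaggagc
Rrm2 promoter, chr12:24708004-24708303, plus strand: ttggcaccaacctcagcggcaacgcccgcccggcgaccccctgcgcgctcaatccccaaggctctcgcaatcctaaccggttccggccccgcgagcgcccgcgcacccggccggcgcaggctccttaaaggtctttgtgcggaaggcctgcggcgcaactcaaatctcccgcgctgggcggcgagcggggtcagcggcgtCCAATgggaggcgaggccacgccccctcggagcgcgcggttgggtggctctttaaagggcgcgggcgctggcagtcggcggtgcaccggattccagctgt
Mki67 holds 2 CHR, 3 CCAAT and 1 E2F matches and Top2a 4 CHR and 6 CCAAT matches. Mcm6 holds 2 CCAAT and 2 E2F matches and no CHR match. Rrm2 holds 1 CCAAT match alone.

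No member passed the test between populations. Of the 42 genes, 41 had at least 1 count in some library and 13 had counts in all 8. Bub1b, a spindle checkpoint kinase, had 0 counts everywhere. A filter on low counts left 21 members for the test. None of the 21 was called by the edgeR quasi-likelihood test (smallest adjusted p = 0.0939, for Rrm2), where 0.444% of all 11721 tested genes were called. At an unadjusted p under 0.05, 2 of 21 were higher in bottom (Rrm2 and Mki67), against 5.62% of all tested genes, and 0 of 21 were lower, against 4.63%. DESeq2 called 1 member, Rrm2, where it called 5.23% of the 11266 genes to which it gave an adjusted p. It gave none to Cdk1, Kif11 and Nusap1, so these could not be called. Limma-trend called 0 of the 21 where it called 1.17% of all tested genes. The median log2 fold change of bottom over top was 0.72 over the 21 members and 0.00 over all tested genes. Values were positive for 16 and negative for 5 members, while 50.1% of all tested genes were positive. The members share libraries, so their signs are not independent. In the omissions of 1 library at a time, 14 to 17 of the 21 members were positive.

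The libraries of the populations overlapped for 41 of the 42 members. Rrm2 lay higher in every bottom library, where 3.31% of tested genes did so, and no member lay higher in every top library, where 3.91% did. Rrm2 stayed higher in every bottom library in each omission of 1 library. Such an omission can only keep or add genes without overlap, and it raised the share among all tested genes. Without top 1, Cenpa joined Rrm2 (2 members, against 4.80% of all tested genes). Without bottom 1, Cdk1, Ccna2 and Cenpe joined it (4 members, against 5.51%), and without bottom 4, Mcm6 and Ccnb1 did (3 members, against 4.88%). Without bottom 3, Foxm1 and Kif20a lay higher in every top library (2 members, against 6.23%). These member counts are out of all 42 members, while the shares cover tested genes alone. Cenpa, Cenpe, Ccnb1 and Foxm1 had enough counts in too few libraries to pass the filter for the test of all 8 libraries. The counts and the shares are therefore not like for like.

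**Figure D1:**
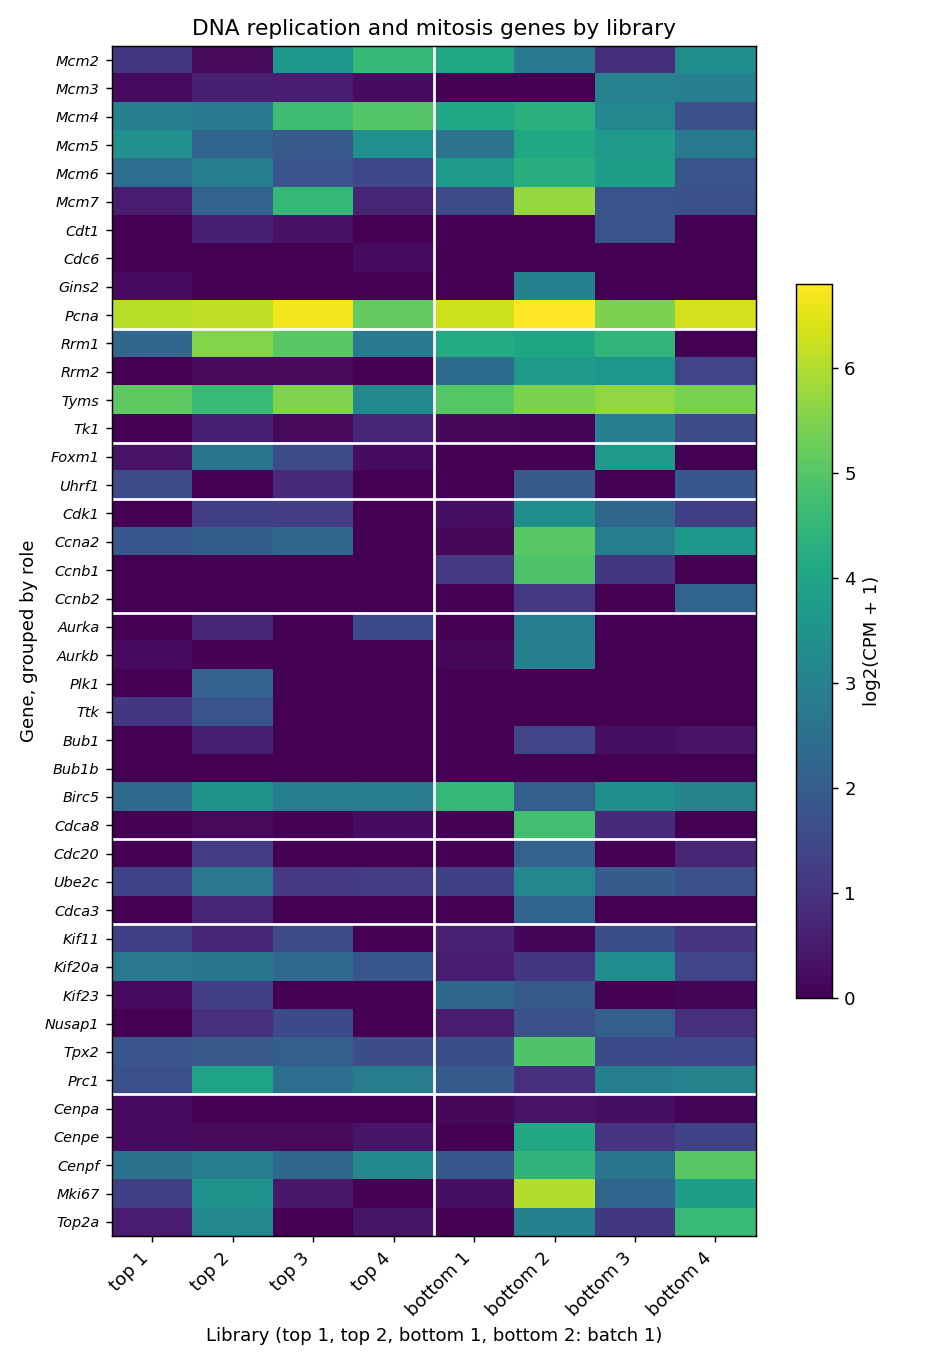
Level of each of the 42 genes (rows, grouped by role) in the 8 libraries (columns) as log2(CPM + 1), with white lines between roles and populations. The mitosis rows are dark in most libraries and brightest in bottom 2, where 21 of the 41 detected genes had their highest level.

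Transcripts of mitosis genes were highest in bottom 2, followed by bottom 4 and top 2. The summed level of the 28 genes of mitosis and its regulators was 30.6, 84.7, 36.0 and 29.8 CPM in top 1 to top 4. It was 38.2, 276, 69.9 and 112 CPM in bottom 1 to bottom 4. Bottom 2 stood 3.76-fold above the mean of the other bottom libraries, top 2 lay above bottom 1 and bottom 3, and the populations overlapped. The means were 45.3 ± 26.4 CPM in top and 124 ± 106 CPM in bottom (SD, n = 4), a ratio of 2.74, which became 1.62 without bottom 2. With all libraries the ratio was 2.73 in batch 1 and 2.77 in batch 2. In batch 1 it rests on bottom 2, because bottom 1 (38.2 CPM) lay between top 1 (30.6 CPM) and top 2 (84.7 CPM).

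The 14 replication and nucleotide genes varied less. Their summed level was 127, 159, 239 and 115 CPM in top 1 to top 4 and 180, 299, 178 and 154 CPM in bottom 1 to bottom 4. The ratio of means was 1.27, and it was 1.67 in batch 1, 0.94 in batch 2 (1.33 when scaled by library totals alone) and 1.07 without bottom 2. Mitosis genes and regulators therefore made up 48.1% of the members' summed level in bottom 2, 42.2% in bottom 4, 34.7% in top 2 and 28.2% in bottom 3. In the other 4 libraries they made up 13.1 to 20.5%. Sums in CPM weigh abundant and long transcripts most.

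**Figure D2:**
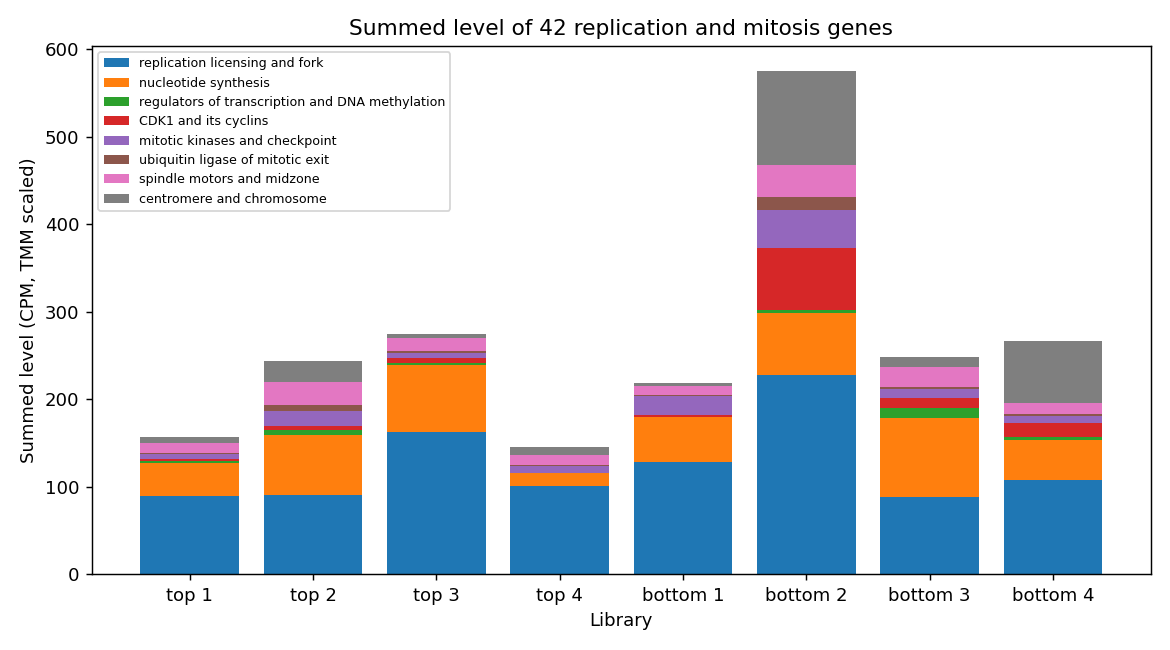
Summed level of the 42 genes in each library in CPM after TMM scaling, with bars stacked by role from 0. Bottom 2 reaches 575 CPM and the other 7 libraries 145 to 275 CPM, and the segments of CDK1 with its cyclins and of centromere and chromosome genes are largest in bottom 2 and bottom 4.

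The number of members with a count followed the same libraries. It was 27, 34, 26 and 22 of 42 in top 1 to top 4 and 25, 35, 30 and 29 in bottom 1 to bottom 4. Thinned to the smallest library total, an alternative chosen after seeing the data, the expected numbers were 32.8 in top 2 and 34.1 in bottom 2, and 22.0 to 30.0 in the others. Of the 41 genes with counts, 21 had their highest CPM in bottom 2, 8 in bottom 3, 4 in top 2 and 0 in top 1 or top 3. Of the 21 tested members, 10 were highest in bottom 2, where 15.3% of all tested genes were.

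Markers of other cell types also differed between these libraries. Acinar markers (10 of 12 with counts, Prss1 and Ptf1a at 0) summed to 1679 CPM in bottom 2, to 133 to 346 CPM in the other bottom libraries and to 23.9 to 293 CPM in top. Intestinal epithelium markers, all 19 with counts, summed to 37830 CPM in bottom 1, 9114 in bottom 2, 46.3 in bottom 3 and 17.4 in bottom 4, and to 56.9 to 2388 CPM in top. Bottom 1, with the most intestinal transcripts, had the lowest mitosis sum of the bottom libraries. Bottom 2, which came next in intestinal transcripts, had the highest mitosis sum. Fibroblast and stellate cell markers, all 9 with counts, summed to 4.48, 208, 218 and 813 CPM in bottom 1 to bottom 4 and to 0.371 to 12.7 CPM in top. Endothelial markers, all 7 with counts, summed to 9.94 to 225 CPM in bottom, highest in bottom 4, and to 0.124 to 8.26 CPM in top.

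Each list of white blood cell markers summed to at most 25.5 CPM in any library. Leukocyte markers, all 7 with counts, summed to 5.80 CPM in bottom 2, 25.5 in bottom 4 and 3.97 to 25.5 CPM over all 8 libraries. Of 11 macrophage and dendritic markers 5 had counts, and Cd68, Csf1r, C1qb, C1qc, Itgax and Flt3 were at 0. T cell markers, all 7 in the table with counts, summed to 3.49 to 8.20 CPM in top and 13.2 to 17.0 CPM in bottom, and B cell markers, all 4 with counts, to 3.52 to 14.7 CPM in top and 0.218 to 0.843 CPM in bottom. Macrophage and dendritic markers summed to 18.2 CPM in bottom 3 and 22.4 CPM in bottom 4 and to 0.437 to 3.39 CPM in the other 6 libraries. Among islet cells, alpha cell markers, all 5 with counts, summed to 141810 CPM in bottom 2, to 28937 to 50950 CPM in the other bottom libraries and to 65052 to 138024 CPM in top. PP cell markers, both with counts, summed to 77084, 91991, 11342 and 22081 CPM in bottom 1 to bottom 4 and to 1196 to 2356 CPM in top. Bottom 2 thus also had the highest sums of alpha, delta, PP and acinar markers. The part of any of these cell types in the mitosis transcripts was not tested.

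Rrm2, the small subunit of ribonucleotide reductase whose level is known to limit nucleotide supply in dividing cells, had the smallest adjusted p. It stood at 0, 0.126, 0.124 and 0 CPM in top 1 to top 4, which is 2 counts in all. In bottom 1 to bottom 4 it stood at 4.26, 12.4, 11.0 and 1.67 CPM, or 294 counts. The populations did not overlap, and each batch showed the same order. The pooled level was 107-fold higher in bottom (95% binomial interval 29.4 to 890, counting error only), and 80.1-fold without bottom 2. The fitted log2 fold change was 6.51 (SE 1.36, n = 4, edgeR adjusted p = 0.0939), a value that depends on the prior count because top was so low. Adjusted p was 0.000869 in DESeq2 and 0.0558 in limma-trend, and it lay between 0.0672 and 0.324 in all other alternatives tried.

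The libraries of the populations overlapped for the other nucleotide enzymes. Rrm1, the large subunit, stood at 3.74, 45.7, 32.0 and 6.03 CPM in top 1 to top 4 and at 16.9, 15.2, 21.1 and 0 CPM in bottom 1 to bottom 4. Top 2 and top 3 were its highest libraries and bottom 4 had no count (log2 fold change -0.74, SE 1.31, edgeR adjusted p = 0.911). Tyms, which makes thymidylate, stood at 33.7, 22.7, 43.7 and 8.42 CPM in top and 31.0, 43.3, 51.0 and 42.4 CPM in bottom. Top 4 was its lowest library and bottom 3 its highest (0.62, SE 0.54, edgeR adjusted p = 0.790). Tk1, the thymidine kinase of S phase, had enough counts in too few libraries to pass the filter for the test. It had 0, 4, 1 and 4 counts in top and 1, 1, 65 and 21 in bottom, so nearly all bottom counts came from batch 2.

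Pcna was seen in every library. It stood at 66.2, 69.4, 98.7 and 34.6 CPM in top 1 to top 4 and at 77.2, 110.2, 43.1 and 78.9 CPM in bottom 1 to bottom 4. The populations overlapped, with means of 67.2 ± 26.2 and 77.4 ± 27.4 CPM (SD, n = 4, log2 fold change 0.17, SE 0.41, edgeR adjusted p = 0.938). Pcna also acts in DNA repair, and it had the smallest standard error of the 21 tested members.

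The 6 MCM subunits form 1 ring-shaped helicase, and their transcripts were highest in different libraries. Mcm6 stood at 4.46, 6.28, 2.47 and 1.75 CPM in top and 12.1, 18.1, 12.9 and 2.41 CPM in bottom, with bottom 4 alone inside the range of top (log2 fold change 1.67, SE 0.82, edgeR adjusted p = 0.545). Mcm5 stood at 9.93, 3.64, 2.72 and 9.84 CPM in top and 5.03, 15.5, 11.8 and 6.02 CPM in bottom (0.55, SE 0.83, edgeR adjusted p = 0.896). Both were highest in bottom 2. Mcm7 stood at 0.432, 3.52, 22.0 and 0.635 CPM in top and 1.97, 51.3, 2.42 and 2.22 CPM in bottom, so 1 library of each population held most of its reads. Its log2 fold change was 0.72 (SE 2.36, edgeR adjusted p = 0.957), and the mean of bottom was 2.20 CPM without bottom 2, below the 6.65 CPM of top. That top mean itself rested on top 3. The log2 fold change of Mcm7 was -1.29 without bottom 2 and 3.0 without top 3.

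Mcm2 and Mcm4 were high in the batch 2 libraries of top. Mcm2 stood at 1.15, 0.126, 11.4 and 22.5 CPM in top and 15.5, 6.08, 0.843 and 9.27 CPM in bottom. Its mean was higher in top (8.80 against 7.92 CPM) while its fitted log2 fold change, which adjusts for batch, was 1.06 (SE 1.93, edgeR adjusted p = 0.915). Mcm4 stood at 6.76, 6.15, 24.7 and 30.6 CPM in top and 15.8, 19.3, 8.01 and 2.22 CPM in bottom (fold change on the log2 scale -0.50, SE 1.08, edgeR adjusted p = 0.930). For Mcm2 and Mcm4 every bottom library of batch 1 lay above both top libraries of that batch. In batch 2 the bottom libraries lay below both top libraries. The interaction of batch and population had an edgeR adjusted p of 0.604 for Mcm2 and 0.593 for Mcm4 (unadjusted 0.0285 and 0.0215), so the difference between batches was not called. These were 2 of 21 members at an unadjusted p under 0.05, against 7.55% of all genes, and 0% of genes passed the adjusted threshold.

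The other licensing and fork genes had few counts in most libraries. Mcm3, the MCM subunit left out of the test, had 1, 4, 4 and 1 counts in top and 0, 0, 67 and 73 in bottom, again with the bottom counts in batch 2. Gins2, a subunit of the replicative helicase complex, had 74 counts in bottom 2, 1 in top 1 and 0 elsewhere. Cdt1 had 6 counts in top and 23 in bottom, all of the latter in bottom 3, and Cdc6 had 1 count in all 8 libraries together. A count of 0 allows a level of up to 0.278 to 0.476 CPM, depending on the library, so Cdc6 was not detectable at this depth in 7 libraries.

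**Figure D3:**
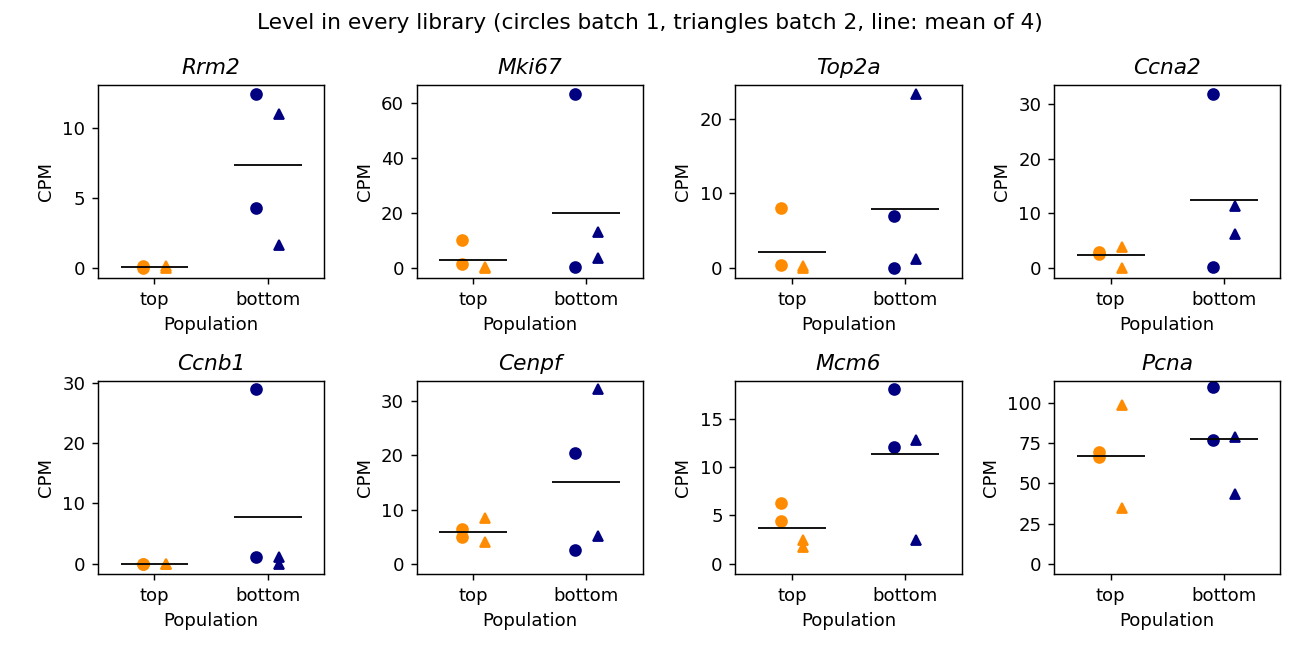
Level in CPM of 8 genes in each library of top (orange) and bottom (blue), with circles for batch 1, triangles for batch 2 and a line at the mean of 4. Rrm2 is the only panel without overlap, 1 bottom library sets the mean of Mki67, Ccnb1 and Ccna2, and Pcna spans similar ranges in both populations.

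Mki67, whose protein coats mitotic chromosomes and is the usual marker of proliferation, stood at 1.44, 10.3, 0.371 and 0 CPM in top 1 to top 4. In bottom 1 to bottom 4 it stood at 0.218, 63.6, 3.58 and 13.1 CPM. Bottom 2 was the highest library, bottom 4 and top 2 were close, and bottom 1 lay below 3 of the top libraries. The log2 fold change was 3.69 (SE 1.63, n = 4, edgeR adjusted p = 0.482), and the bottom mean of 20.1 CPM became 5.62 CPM without bottom 2. Top2a, the topoisomerase that untangles chromosomes, stood at 0.432, 8.04, 0 and 0.318 CPM in top and 0, 6.92, 1.16 and 23.3 CPM in bottom. Here bottom 4 led, and top 2 lay above bottom 2 (2.66, SE 2.69, edgeR adjusted p = 0.831).

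Among the centromere genes, Cenpf and Cenpe were highest in bottom 2 and bottom 4. Cenpf, a kinetochore protein, stood at 4.89, 6.40, 3.96 and 8.42 CPM in top and 2.62, 20.4, 5.16 and 32.3 CPM in bottom (log2 scale 1.31, SE 0.91, edgeR adjusted p = 0.713). Bottom 2 and bottom 4 lay above all top libraries, and bottom 1 below them. Cenpe, a kinetochore motor, had 1, 1, 1 and 2 counts in top and 0, 168, 10 and 17 in bottom, a pooled ratio of 28.5 (95% binomial interval 12.0 to 88.7) that became 5.37 without bottom 2. Cenpa, the histone variant of the centromere, had 1 count in top 1 and 1, 3, 2 and 1 in bottom, too few to order the libraries.

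Cdk1 and its cyclins gave the largest ratio of summed levels of any role, at 3.04 CPM in top and 25.1 CPM in bottom, or 8.25-fold, and 3.19-fold without bottom 2. Their summed level in bottom 1, 1.53 CPM, lay within the range of top, 0 to 5.19 CPM. Cdk1, the kinase that starts mitosis, stood at 0, 1.38, 1.36 and 0 CPM in top and 0.218, 9.44, 3.79 and 1.39 CPM in bottom (fold change on the log2 scale 2.33, SE 1.54, edgeR adjusted p = 0.699). Ccna2, cyclin A2, stood at 2.59, 3.01, 3.83 and 0 CPM in top and 0.109, 31.9, 6.22 and 11.4 CPM in bottom (2.34, SE 1.5, edgeR adjusted p = 0.683). For both genes 3 bottom libraries lay above all top libraries, although Cdk1 in bottom 4 was within 1 count of top 2 in level, and bottom 1 did not.

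The B cyclins were found in bottom only. Ccnb1 had 0 counts in each top library and 11, 309, 11 and 0 in bottom, at least 80.5-fold higher in bottom against a floor of 3 counts over the population. Without bottom 2 that bound was 7.30-fold. Ccnb2 had 0 counts in top and 0, 13, 0 and 39 in bottom, at least 12.7-fold higher, or 4.33-fold without bottom 4. With no filter on low counts, edgeR gave an adjusted p of 0.136 for Ccnb1 and 0.437 for Ccnb2, so neither was called.

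Mitotic kinases were detected in few libraries. Aurkb, the kinase of the chromosomal passenger complex, had 73 counts in bottom 2, 1 in bottom 1 and 1 in top 1. Its partner Cdca8 had 0, 1, 0 and 1 counts in top and 0, 273, 7 and 0 in bottom. Birc5 (survivin), the third partner named here, was present in every library, at 4.03, 10.4, 6.68 and 6.35 CPM in top and 22.1, 3.18, 9.48 and 7.23 CPM in bottom. Its highest library was bottom 1 and its lowest bottom 2, the library where Aurkb and Cdca8 were highest (log2 fold change 0.58, SE 0.83, edgeR adjusted p = 0.892). Aurka, the spindle pole kinase, had 0, 5, 0 and 12 counts in top and 67 in bottom, all in bottom 2.

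Plk1 and Ttk had counts in top only. Plk1, the Polo kinase, had 27 counts in top 2 and 0 elsewhere, and Ttk, a checkpoint kinase, had 8 in top 1, 19 in top 2 and 0 elsewhere. Each was at least 12.3-fold higher in top against the floor of 3 counts. For Plk1 this rests on top 2 alone, and for Ttk the bound was 5.02-fold without top 2. The edgeR test with no filter on low counts gave an adjusted p of 0.615 for Plk1 and 0.568 for Ttk, so neither was called. Bub1, another checkpoint kinase, had 4 counts in top 2 and 0, 18, 2 and 3 in bottom.

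The genes of mitotic exit shared the pattern of top 2 and bottom 2. Ube2c, the enzyme that passes ubiquitin to the anaphase-promoting complex, stood at 1.58, 5.65, 1.24 and 1.27 CPM in top and 1.42, 8.04, 2.84 and 2.13 CPM in bottom. Each population had 1 high library (log2 fold change 0.68, SE 0.90, edgeR adjusted p = 0.885). Cdc20, which activates that complex, had 10 counts in top 2 and none in the other top libraries, and 0, 36, 0 and 7 in bottom. Cdca3 had 5 counts in top 2, 39 in bottom 2 and 0 elsewhere.

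Spindle genes were highest in different libraries. Tpx2, which starts microtubule growth at chromosomes, stood at 2.45, 2.76, 3.09 and 2.06 CPM in top and 2.08, 29.4, 1.90 and 1.76 CPM in bottom. Outside bottom 2 its range was narrow, and the bottom mean without that library was 1.91 CPM against 2.59 CPM in top (log2 fold change with it 1.06, SE 1.19, edgeR adjusted p = 0.857). Nusap1, a microtubule bundler, stood at 0, 0.879, 1.85 and 0 CPM in top and 0.437, 2.24, 3.16 and 0.927 CPM in bottom (1.33, SE 1.32, edgeR adjusted p = 0.827). Kif23, a motor of the midzone, had 1, 11, 0 and 0 counts in top and 35, 30, 0 and 1 in bottom.

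The remaining spindle genes had negative values. Kif20a, a midzone motor, stood at 5.61, 5.27, 4.20 and 2.54 CPM in top and 0.437, 1.12, 8.95 and 1.67 CPM in bottom, so bottom 3 was the highest library and the other 3 lay below all top libraries (log2 fold change -1.04, SE 1.19, edgeR adjusted p = 0.860). Prc1, which cross-links midzone microtubules, stood at 2.16, 14.3, 4.58 and 6.35 CPM in top and 2.84, 0.935, 6.64 and 7.23 CPM in bottom (-0.88, SE 1.05, edgeR adjusted p = 0.866). Kif11, the motor that separates spindle poles, stood at 1.44, 0.628, 1.98 and 0 CPM in top and 0.546, 0.0935, 2.11 and 1.02 CPM in bottom (-0.46, SE 1.23, edgeR adjusted p = 0.945). For Prc1 and Kif11, bottom 2 was the lowest bottom library. In the RefSeq annotation Kif20a lies over Brd8 and Cdc23 and Prc1 over Rccd1, and their counts were not whole numbers in any library. Reads shared with other transcripts may therefore enter these levels. This was not particular to genes with negative values. Counts of Mcm5, Tyms, Ube2c, Tpx2 and Cenpf, all with positive values, were not whole in any library either. Of other members with positive values, Ccna2 lies over Exosc9, Nusap1 over Oip5 and Mcm7 over Ap4m1.

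Foxm1, the transcription factor of mitotic genes, had 2, 42, 16 and 1 counts in top and 0, 0, 110 and 0 in bottom. It had 0 counts in bottom 2, and highest in bottom 3. Uhrf1, which carries DNA methylation through replication, had 14, 0, 6 and 0 counts in top and 0, 31, 0 and 29 in bottom.

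**Figure D4:**
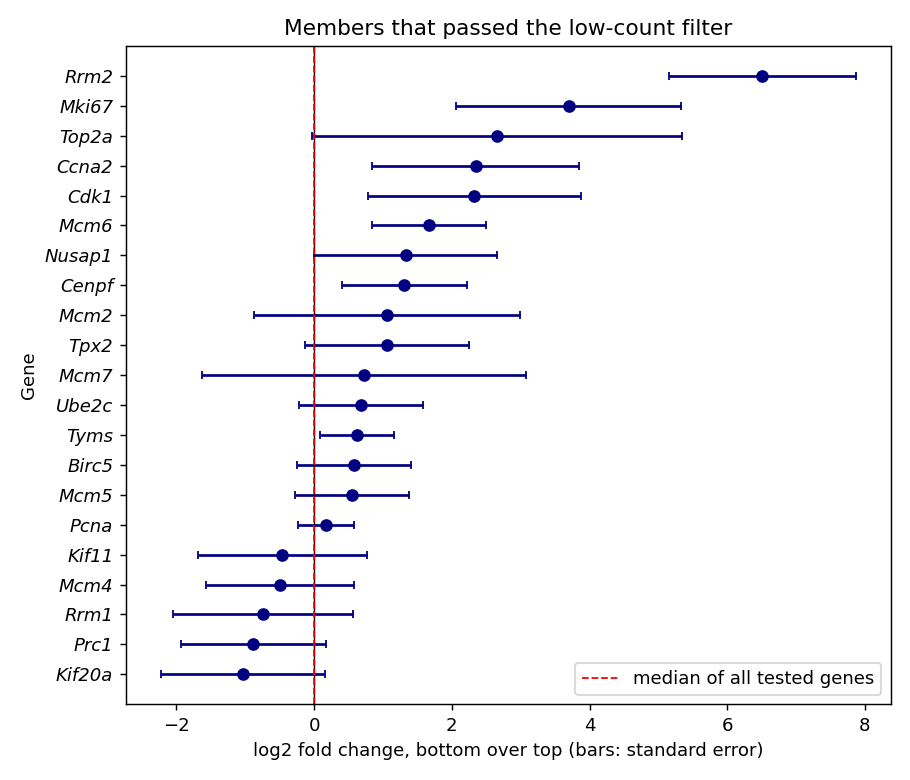
Log2 fold change of bottom over top for the 21 tested genes from the edgeR fit, with bars of 1 standard error and a dashed line at the median of all tested genes. Rrm2 lies farthest to the right at 6.51, 16 genes lie right of 0, and none passed the adjusted threshold.

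Other genes of the cell cycle gave no call either. Of 47 further replication genes 33 were tested, and 0 rose and 0 fell, with 21 positive values and a median log2 fold change of 0.25. Of 58 further mitosis genes 23 were tested, with 0 called, 14 positive and a median of 0.26. Of 19 E2F, MYB and pocket protein regulators 15 were tested, with 0 called, 8 positive and a median of 0.04. Over all tested genes 50.1% of values were positive. At an unadjusted p under 0.05 the edgeR test gave 2 higher and 2 lower, 0 and 2, and 1 and 1 in these lists. The most positive values were those of the clamp loader subunit Rfc4 (4.03 on the log2 scale, SE 1.56, edgeR adjusted p = 0.391) and the securin Pttg1 (2.99, SE 1.73, edgeR adjusted p = 0.637). The most negative were those of the chromosome motor Kif22 (-3.28, SE 1.15, edgeR adjusted p = 0.339) and the single-strand binding subunit Rpa2 (-1.96, SE 1.63, edgeR adjusted p = 0.783). Without overlap of the libraries, 2 of 33 replication genes (Rfc2 and Rfc4) lay higher in bottom and 2 (Orc2 and Orc6) higher in top. Of the mitosis genes 0 of 23 lay higher in bottom and 2 (Kif22 and Spc25) higher in top, and of the regulators 0 of 15 and 1 (E2f6). Rfc2, Orc2, Orc6, Spc25 and E2f6 were named after their values were seen, and over all tested genes the shares were 3.31% and 3.91%. Pttg1 stood at 31.1 CPM in bottom 2 and at 0 to 5.02 CPM elsewhere.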

How the data were processed

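The deposited values were RSEM expected counts per gene, per the file headers, given once per library and once for the whole series. The submitters' processing notes list mouse build mm9, RSEM and edgeR. Aligner, annotation and version numbers: not given in the sources used here. cDNA was amplified from few cells, per the labels' protocols, and reads carry no molecular identifiers, so intervals and floors cover counting error only. The protocol names no strand-specific step. Counts were rounded (38.1% of the members' values were not whole). Bottom was compared with top by edgeR 4.0.16 in R 4.3.3 (TMM, filterByExpr by population, batch as a covariate, quasi-likelihood test, Benjamini-Hochberg adjustment over 11721 genes, calls at 0.05, 4 libraries a population). The common biological coefficient of variation was 0.806. The standard error is the fold change over the root of the F statistic. CPM use TMM-scaled sizes. Alternatives were DESeq2 1.42.0, limma-trend 3.58.1 (prior count 2), other scalings and filters, no batch term, single batches and omissions of 1 library. The edgeR test was tried on simulated counts. Its recovery there is not given, so this run does not show what the test could miss in these data.

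All members were described, with values in every library for those tested and counts by library for the untested ones of highest pooled count. Of other cell cycle genes, called ones and the 2 most positive and 2 most negative were named. Members and lists were chosen with earlier results of these data known. Because members share libraries, they are not replicates. By RefSeq (GRCm38.p6), 13 of the 42 members lie over another gene, so part of their reads may belong to it. No coordinates of the mm9 build are given.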

Additional observations from a re-analysis of the deposited data

Results flagged for a closer look

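Libraries that stand apart from the other 3 of their population were sought by the gap of the most extreme library divided by the population's range, against Dixon's 95% critical value for 4 values. This was done for the 21 tested genes and the summed levels, 64 groups of 4 in all, of which 12 passed. Chance alone flags about 1 group in 20 only where values follow a normal distribution. Low counts that vary this much between libraries need not follow it, so the rate due to chance here is not known. The genes share libraries, so the groups are not independent.

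Mcm7 passed in both populations, at 0.857 in top for top 3 and 0.991 in bottom for bottom 2. Tpx2 in bottom passed at 0.989, for bottom 2, and Kif20a in bottom at 0.855, for bottom 3. In top, Ube2c passed at 0.922, Mki67 at 0.860 and Top2a at 0.946, each for top 2.

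Of the summed levels, that of all members passed in bottom at 0.865, for bottom 2. That of mitosis genes and regulators passed in top at 0.888, for top 2, and that of replication licensing and fork genes in top at 0.848, for top 3. The genes of mitotic exit passed in top at 0.945, for top 2, and in bottom at 0.896, for bottom 2. The values behind each are given in the report, and their causes were not tested.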

How the results depend on the processing

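The number of all genes called was 52. It was 589 with DESeq2, 204 without the low-count filter, 137 with limma-trend, 32 without the batch term, and 2 in batch 1 alone and 2 in batch 2 alone. Over the omissions of 1 library it was 8 to 60. The number of members called was 0, and 1 (Rrm2) with DESeq2, and it stayed 0 in every other alternative run. Of 376 values of the 21 tested members under alternatives, 24 changed sign, in 11 members, and none of these was called. Outside the omissions, the log2 fold change turned for Mcm2 without the batch term (-0.15) and for Kif11 in limma-trend (0.0028). In batch 1 alone it turned for Mcm4 (1.42) and Top2a (-0.31). In batch 2 alone it turned for Mcm2 (-1.73), Mcm7 (-2.26), Pcna (-0.11), Kif11 (0.65), Kif20a (0.67), Tpx2 (-0.48) and Prc1 (0.36). Over the omissions it ranged from -0.40 to 2.57 for Mcm2, -1.29 to 3.0 for Mcm7, -1.26 to 0.37 for Mcm4, -2.14 to 0.12 for Rrm1, -1.33 to 0.11 for Prc1, -0.031 to 0.59 for Pcna, -0.22 to 0.91 for Birc5, -1.15 to 0.094 for Kif11 and -0.41 to 1.57 for Tpx2. The cause was not tested. With library totals alone the median of all genes shifted by 0.33 and that of the members was 1.08, so their difference stayed at a similar size. The summed levels of all members, of replication and of mitosis genes kept their direction under other scalings and each omission and moved by less than the spread between libraries, while within batch 2 the ratio of the replication sum was 0.94 with TMM or RLE factors and 1.33 with library totals alone. In the shorter promoter window, from 100 bases before the start, the members' share went from 57.1 to 54.3% for CHR, from 82.9 to 74.3% for CCAAT and from 31.4 to 20% for E2F. The shares of all promoters there were 8.68%, 24% and 3.96%. No paired analysis was possible because the titles of the populations share only 1 number in each batch. Members had few counts in many libraries, and this depth limits what could be detected.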
